A study of Mus musculus with 6 samples.

Results

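The genes examined were Serpinb2, Serpinb10, Serpinb8, Serpinb1a, Serpinb6a and Serpinb9, which are clade B serpins, and Plau and Plaur, which encode the urokinase plasminogen activator (uPA) and its receptor (uPAR). These 8 genes, of the 55421 gene IDs in the count table, were chosen by symbol with the genotype difference of Serpinb2 and Serpinb10 already known from the same libraries, so the differences between genotypes below describe the 8 genes and do not test them. All 8 were present in the count table and in the normalized table, and all 8 passed the expression filter that left 14469 genes in the comparison. RNA-seq was performed on tumor-associated macrophages (TAMs) isolated on day 15 from M17 (MC17-51) fibrosarcomas of adult Pdcd1f/f and Pdcd1f/fLysMcre mice, with 3 libraries for each genotype. Both groups carried the floxed Pdcd1 alleles and the same tumor, so the Pdcd1f/f mice are called controls, and only the Pdcd1f/fLysMcre mice also carried Cre recombinase under the lysozyme promoter, which acts in myeloid cells as a whole and not in TAMs alone. TAMs were sorted as live CD45+CD11b+F4/80+Ly6G- cells.

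Clade B serpins are mostly intracellular protease inhibitors that trap their target protease by a covalent, suicide type of reaction. Serpinb2, also named plasminogen activator inhibitor 2, inhibits uPA and is a well known product of stimulated macrophages. uPA, held at the cell surface by uPAR, cleaves plasminogen to plasmin, which degrades fibrin and other extracellular proteins.

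Serpinb2, Serpinb10 and Serpinb8 lie side by side on chromosome 1, and the sequence upstream of each is shown because these neighbors differed from one another in the genotype comparison. Each line is the 250 bases before the annotated start, 5′ to 3′ on the plus strand, from the RefSeq promoter table of GRCm38.p6, at chr1:107511173-107511422 for Serpinb2, chr1:107528753-107529002 for Serpinb10 and chr1:107589756-107590005 for Serpinb8. Capitals mark matches to TGANTCA, in which N is any base. The recognition letters of the AP-1 (Fos-Jun) factors are TGACTCA or TGAGTCA, so TGANTCA is a looser search.
Serpinb2: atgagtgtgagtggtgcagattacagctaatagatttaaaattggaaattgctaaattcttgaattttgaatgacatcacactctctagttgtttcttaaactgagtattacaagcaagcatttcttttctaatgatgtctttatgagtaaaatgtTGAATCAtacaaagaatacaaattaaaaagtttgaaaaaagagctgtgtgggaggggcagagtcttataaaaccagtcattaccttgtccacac
Serpinb10: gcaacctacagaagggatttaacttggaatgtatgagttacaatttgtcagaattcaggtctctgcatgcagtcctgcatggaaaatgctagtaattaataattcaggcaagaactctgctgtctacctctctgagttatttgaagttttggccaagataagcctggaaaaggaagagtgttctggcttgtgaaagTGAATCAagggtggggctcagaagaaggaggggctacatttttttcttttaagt
Serpinb8: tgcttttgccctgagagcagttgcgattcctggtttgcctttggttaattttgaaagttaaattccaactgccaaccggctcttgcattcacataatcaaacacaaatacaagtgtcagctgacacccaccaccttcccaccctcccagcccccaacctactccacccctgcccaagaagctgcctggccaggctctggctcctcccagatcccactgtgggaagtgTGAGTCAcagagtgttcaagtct

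The match TGAATCA began 94 bases before the start of Serpinb2 and 54 bases before that of Serpinb10, and TGAGTCA began 23 bases before the start of Serpinb8. The window of Plaur held TGACTCA, beginning 69 bases before its start at chr7:24462233-24462482. The matches of Serpinb8 and Plaur are thus AP-1 recognition letters, whereas TGAATCA of Serpinb2 and Serpinb10 matches only the looser search. Matches to TGANTCA, which reads as the same motif on both strands, were found in 5 of the 8 windows that the table holds for 6 of the genes. Serpinb2 and Serpinb6a have 2 windows each, and those of Serpinb2 overlap and share their match, so the 5 windows belong to 4 genes. Among all 32851 windows of the same length, 6.75% held the motif. Windows for Plau and Serpinb1a were not used here. The Serpinb2 window shown also held TGACATCA, a match to the cAMP response element letters TGACNTCA (in 7.49% of windows on either strand), and TATAAA (12.4%), neither of which overlapped the AP-1 letters. The second window of Serpinb6a (chr13:33936084-33936333, minus strand), but not the first (chr13:34002795-34003044), had 1 match to TGACNNNGC, the core of the antioxidant response element (10.2%), and none of the 8 windows had the kappaB letters that were searched (0.356%). Each match describes letters in these windows and says nothing about binding in TAMs.

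Before the levels are given, several measures of the 6 libraries bear on them. Total counts ranged from 41833823 to 51417209, so 3 counts corresponded to between 0.0583 and 0.0717 CPM (counts scaled to library size), a floor that covers counting error only. Pdcd1 had 10, 12 and 15 counts in control replicates 1 to 3 and 7, 16 and 11 in replicates 1 to 3 of Pdcd1f/fLysMcre (log2 fold change -0.25, standard error 0.45, edgeR adjusted p = 0.771). Since the counts are summed over the gene, reads of the floxed exons cannot be separated out. Lyz2, the lysozyme gene that carries the Cre insertion, had 216864 normalized counts on average in control TAMs and 427 in Pdcd1f/fLysMcre TAMs, which separated the libraries as labelled. Normalized counts of Xist were 17318 to 26511 in Pdcd1f/f and 8530 to 13137 in Pdcd1f/fLysMcre libraries, while those of 4 Y-linked genes, summed, were 1545 to 1914 and 6267 to 7233. Sex composition and genotype therefore cannot be told apart in these libraries. In Pdcd1f/f replicate 1 and Pdcd1f/fLysMcre replicate 2, genes deviated from their genotype mean in the opposite direction with GC content (Spearman rho -0.718 and -0.642 across 11565 genes, which are not independent replicates) to the other 4 libraries (0.166 to 0.659).

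When transcript levels were compared per exon length, as RPKM (counts scaled to exon length and to the TMM-adjusted library size), the 8 genes had the same order in both genotypes. Plau was the most abundant, with 227 ± 9.36 RPKM in control TAMs and 265 ± 2.51 RPKM in Pdcd1f/fLysMcre TAMs (SD over 3 libraries). Plaur followed at 102 ± 11.1 and 103 ± 5.4 RPKM (SD over 3 libraries). Hence the activator and its receptor were both above every serpin examined.

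Serpinb6a was at 43.5 ± 3.64 and 37.3 ± 2.55 RPKM and Serpinb8 at 22.5 ± 1.17 and 24.6 ± 1.59 RPKM (SD over 3 libraries, Pdcd1f/f first). Serpinb2 came next, at 2.96 ± 0.121 RPKM in control TAMs and 7.73 ± 0.377 RPKM in Pdcd1f/fLysMcre TAMs (SD over 3 libraries). Even at its higher level, Serpinb2 remained below Serpinb8, its neighbor on chromosome 1. Serpinb9 was at 2.03 ± 0.215 and 2.03 ± 0.238 RPKM, Serpinb1a at 0.941 ± 0.198 and 1.62 ± 0.336 RPKM, and Serpinb10 at 0.111 ± 0.0397 and 0.319 ± 0.0104 RPKM (SD over 3 libraries). No neighbors in this order overlapped between libraries in control TAMs, and in Pdcd1f/fLysMcre TAMs Serpinb9 (1.87 to 2.31 RPKM) and Serpinb1a (1.37 to 2 RPKM) overlapped.

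**Figure D1:**
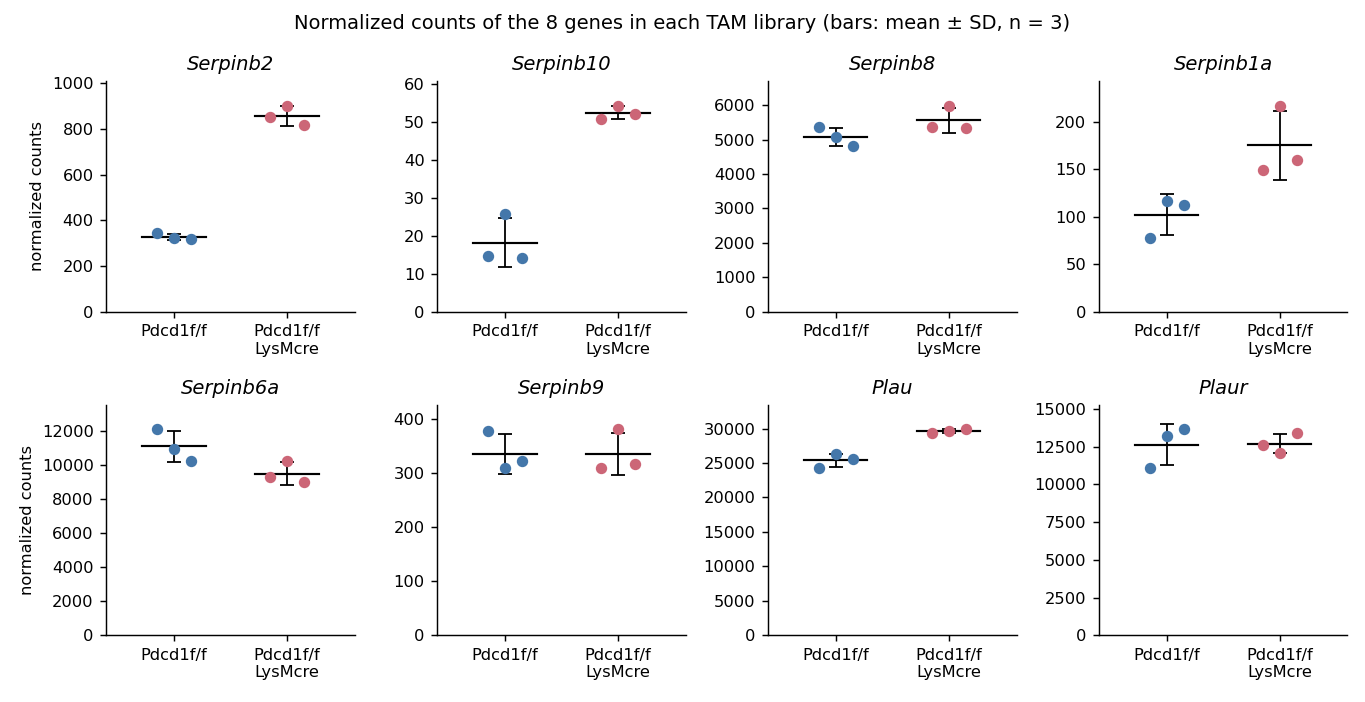
Normalized counts of each of the 8 genes (y axis, from 0, a separate scale for each gene) in the 3 Pdcd1f/f and 3 Pdcd1f/fLysMcre TAM libraries (points, replicates 1 to 3 from left to right), with the mean and SD. Serpinb2, Serpinb10, Serpinb1a and Plau are higher in all Pdcd1f/fLysMcre libraries, Serpinb6a is lower in all of them, and Serpinb8, Serpinb9 and Plaur overlap.

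The comparison of genotypes asked how transcript levels in TAMs differ between Pdcd1f/fLysMcre mice, in which Pdcd1 is targeted in myeloid cells, and controls. Only the Pdcd1f/fLysMcre mice carried Cre, and their Lyz2 transcript was far lower. Pdcd1 targeting, Cre itself and the loss of Lyz2 therefore cannot be told apart in this comparison. Serpinb2 (ENSMUSG00000062345, chr1:107511423-107535478, plus strand) had 343, 324 and 317 normalized counts in control replicates 1 to 3, against 850, 901 and 817 in replicates 1 to 3 of Pdcd1f/fLysMcre. All 3 Pdcd1f/fLysMcre libraries stood far above the highest control library. The means were 328 ± 13.7 and 856 ± 42.2 (SD over 3 libraries), a 2.61-fold difference and a log2 fold change of 1.39 with a standard error of 0.09. The replicates were close, with coefficients of variation of 4.18% and 4.93%. In bulk libraries, a change in the number of cells that make a transcript and a change in the RNA per cell cannot be told apart, here and for every gene below.

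Serpinb10, or bomapin, a serpin of hematopoietic cells (ENSMUSG00000092572, chr1:107529003-107549271, plus strand), had few counts. They were 16, 23 and 13 raw counts in the controls and 55, 57 and 53 in the Pdcd1f/fLysMcre libraries. The groups did not overlap, and the spread lay in the controls, where the coefficient of variation was 35.3% against 3.28% in Pdcd1f/fLysMcre TAMs. Mean normalized counts were 18.3 ± 6.45 and 52.4 ± 1.72 (SD over 3 libraries), with a log2 fold change of 1.53 and a standard error of 0.30. The GENCODE annotation lists Serpinb10 as a polymorphic pseudogene.

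Annotated exons of Serpinb2 and Serpinb10 shared 291 bases on the same strand, which is 12.4% of the exon bases of Serpinb2 and 8.34% of those of Serpinb10. Per exon base, Serpinb10 amounted to 2.91, 5.34 and 3.03 per 100 Serpinb2 in the controls and 4.03, 4.06 and 4.29 per 100 in the Pdcd1f/fLysMcre libraries. These ratios overlapped between genotypes. The annotation also holds Serpinb2 transcripts that run into exons of Serpinb10, and how many of the Serpinb10 counts come from them was not tested.

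Serpinb8, an inhibitor of the proprotein convertase furin (ENSMUSG00000026315, chr1:107590006-107610484, plus strand), was the most abundant of the 3 neighbors. Its normalized counts were 5360, 5074 and 4830 in the controls and 5377, 5986 and 5345 in the Pdcd1f/fLysMcre libraries. Pdcd1f/fLysMcre replicate 3 lay below the highest control, so the groups overlapped. The log2 fold change was 0.13 with a standard error of 0.07.

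Serpinb1a, an inhibitor of neutrophil elastase, cathepsin G and proteinase 3 (ENSMUSG00000044734, chr13:32842092-32851185, minus strand), had 77.9, 117 and 112 normalized counts in control TAMs and 149, 217 and 160 in Pdcd1f/fLysMcre TAMs. All Pdcd1f/fLysMcre libraries were above the controls, by 1.71-fold on average, but the replicates of both genotypes varied by 20.8%. The log2 fold change was 0.79 with a standard error of 0.20. With the 2 libraries of opposite GC trend left out, an alternative chosen after seeing the data, it was 0.43 (standard error 0.17).

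Serpinb6a, an inhibitor of cathepsin G and related proteases (ENSMUSG00000060147, chr13:33917918-34002794, minus strand), had 12119, 10966 and 10265 normalized counts in control TAMs and 9308, 10258 and 9003 in Pdcd1f/fLysMcre TAMs. It was the only one of the 8 genes that was lower in all Pdcd1f/fLysMcre libraries, although the highest of them, 10258, lay just under the lowest control. The log2 fold change was -0.22 with a standard error of 0.08. Its exons overlapped those of genes on the opposite strand, 241 bases with Ripk1 and 762 with Nqo2, and whether reads were counted by strand is not given in the sources used here.

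Serpinb9, a serpin known for inhibiting granzyme B (ENSMUSG00000045827, chr13:33003250-33017957, plus strand), had 377, 308 and 321 normalized counts in control TAMs and 308, 380 and 317 in Pdcd1f/fLysMcre TAMs. The ranges were nearly identical, and the means were 335 ± 36.3 and 335 ± 39.3 (SD over 3 libraries). The log2 fold change was -0.00 with a standard error of 0.13, so a difference smaller than the spread between replicates was not detectable.

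Plau (ENSMUSG00000021822, chr14:20836660-20843385, plus strand) had 24339, 26240 and 25540 normalized counts in control TAMs and 29341, 29665 and 29866 in Pdcd1f/fLysMcre TAMs. All Pdcd1f/fLysMcre libraries were above the controls and close to each other, with a coefficient of variation of 0.893%. The difference was 1.17-fold, with a log2 fold change of 0.23 and a standard error of 0.06.

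Plaur (ENSMUSG00000046223, chr7:24462484-24475968, plus strand) had 11087, 13180 and 13640 normalized counts in control TAMs and 12637, 12090 and 13400 in Pdcd1f/fLysMcre TAMs. The receptor transcript overlapped between genotypes, with the lowest value in Pdcd1f/f replicate 1. The log2 fold change was 0.01 with a standard error of 0.08.

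Among the 8 genes, 2 (Serpinb2 and Serpinb10) were past the edgeR threshold of an adjusted p-value under 0.05, both higher in Pdcd1f/fLysMcre TAMs. Over all genes tested, 5.43% were past it, 2.42% higher and 3.01% lower, and since the genes were chosen with this contrast known, nothing is read from their count. The genotypes did not overlap for 5 of the 8 genes, 4 higher and 1 lower, whereas over all genes tested 27.2% did not overlap, 14.1% higher and 13.1% lower. The median log2 fold change of the 8 genes was 0.18, beside -0.00 for all genes.

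Across the alternatives, 16 in number, Serpinb2 was past the threshold in all 16, with log2 fold changes of 1.32 to 1.41. Serpinb10 was past it in 13 of 16 and in 3 of the 6 fits that each left out 1 library. Its log2 fold change was 1.38 without Pdcd1f/f replicate 3, 1.55 without Pdcd1f/fLysMcre replicate 1 and 1.50 without Pdcd1f/fLysMcre replicate 2, and in these fits the call was lost. Serpinb1a was past the threshold in 6 of 16 alternatives, Plau in 7 and Serpinb6a in 4, with directions unchanged, while Serpinb8, Serpinb9 and Plaur were past it in none.

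**Figure D2:**
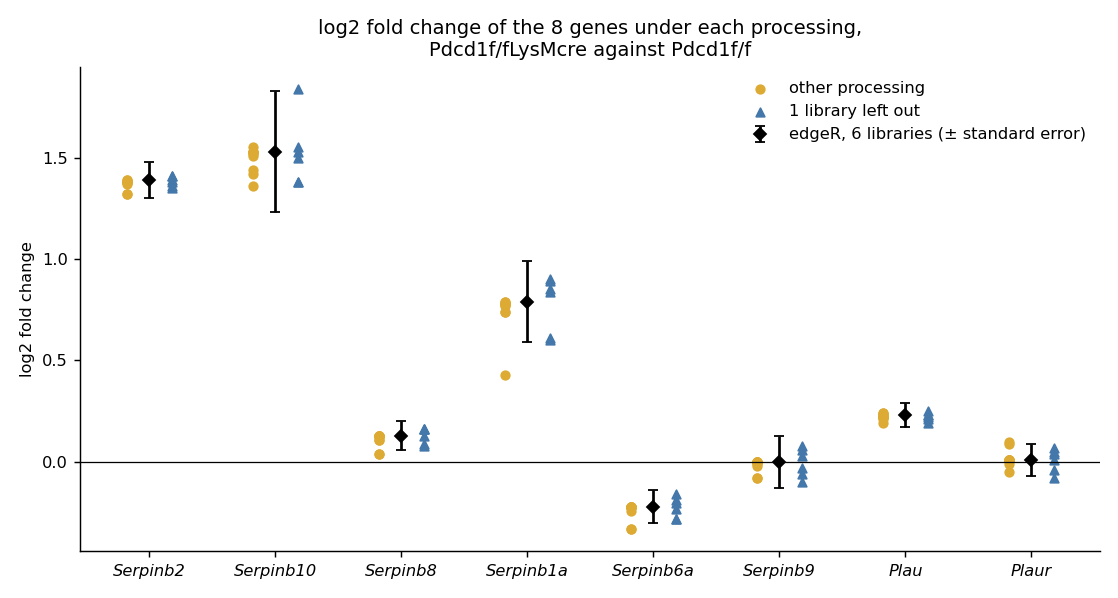
log2 fold change of each of the 8 genes (y axis, Pdcd1f/fLysMcre against Pdcd1f/f) in edgeR with 6 libraries (diamonds, ± standard error), under other processing (circles) and with 1 library left out (triangles). Serpinb2 stays between 1.32 and 1.41, Serpinb10 ranges from 1.36 to 1.84, and Serpinb9 and Plaur lie on both sides of 0.

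The 6 serpins shared a low GC content, which the choice of genes did not use. Their exons were 38.5% to 43.6% GC, between the 3.29 and 20.1 percentiles of the genes tested, whose median was 49.2%, while Plau was at 48.3% and Plaur at 53%. In the libraries with the opposite GC trend, 4 of the 6 serpins had their highest control value in Pdcd1f/f replicate 1 and for all 6 the highest of the 3 Pdcd1f/fLysMcre values was in replicate 2. After each library was offset for GC content and length, the log2 fold changes were 1.32 for Serpinb2, 1.42 for Serpinb10, 0.04 for Serpinb8, 0.74 for Serpinb1a, -0.33 for Serpinb6a and -0.08 for Serpinb9. The difference of Serpinb2 and Serpinb10 was thus nearly as large with the offsets.

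The neighborhood of the chromosome 1 serpins was examined next, because Serpinb2, Serpinb10 and Serpinb8 lie 13.46, 13.48 and 13.54 Mb from the floxed Pdcd1 gene (chr1:94038305-94052553). Between Pdcd1 and 2 Mb beyond Serpinb8, 24 other genes were tested, and 2 were past the threshold (8.33%), both higher in Pdcd1f/fLysMcre TAMs. They were St8sia4, a polysialyltransferase 1.5 Mb from Pdcd1 (2417 ± 237 and 3204 ± 359 normalized counts, SD over 3 libraries, log2 fold change 0.41, edgeR adjusted p = 0.0367), and Zcchc2, at 11.9 Mb (2924 ± 106 and 3595 ± 91.2, log2 fold change 0.30, edgeR adjusted p = 0.0206). St8sia4 was past the threshold in 12 of 16 alternatives and Zcchc2 in 11 of 16. Both calls were lost without Pdcd1f/f replicate 2 or 3 or Pdcd1f/fLysMcre replicate 1 or 2, and that of Zcchc2 also without Pdcd1f/fLysMcre replicate 3, with log2 fold changes of 0.33 to 0.48 for St8sia4 and 0.28 to 0.32 for Zcchc2 when 1 library was left out (edgeR adjusted p up to 0.180 and 0.148). With the replicate block and offsets for GC content and length, the log2 fold change of St8sia4 was 0.22 (edgeR adjusted p = 0.00723). The median log2 fold change over this stretch was 0.08. On the other side of Pdcd1, Wdfy1 (chr1:79702262-79776143, 14.3 Mb away) had 1812 ± 42.2 and 4558 ± 178 normalized counts (SD over 3 libraries, log2 fold change 1.33, edgeR adjusted p = 2.5e-06). Tns1, on that side at 19.9 Mb, was lower, with 3390 ± 325 and 1749 ± 142 normalized counts (SD over 3 libraries, log2 fold change -0.95, edgeR adjusted p = 2.9e-04). Within 20 Mb of Pdcd1 on either side, 174 genes other than the members were tested and 15 were past the threshold (8.62%), 9 higher and 6 lower, with a median log2 fold change of -0.01.

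Within 2 Mb of the clade B serpins on chromosome 1, 11 other genes were tested and 1 was past the threshold (Zcchc2), with a median log2 fold change of 0.09. Around the clade B serpins on chromosome 13, which hold Serpinb1a, Serpinb9 and Serpinb6a, 24 genes were tested and 1 was past the threshold (Serpinb6b), with a median of 0.10. Over all of chromosome 1, with the members left out, 59 of 904 genes were past the threshold (6.53%), and of those more than 20 Mb from Pdcd1 44 of 730 were (6.03%). Whether the shares of these regions differ was not tested.

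**Figure D3:**
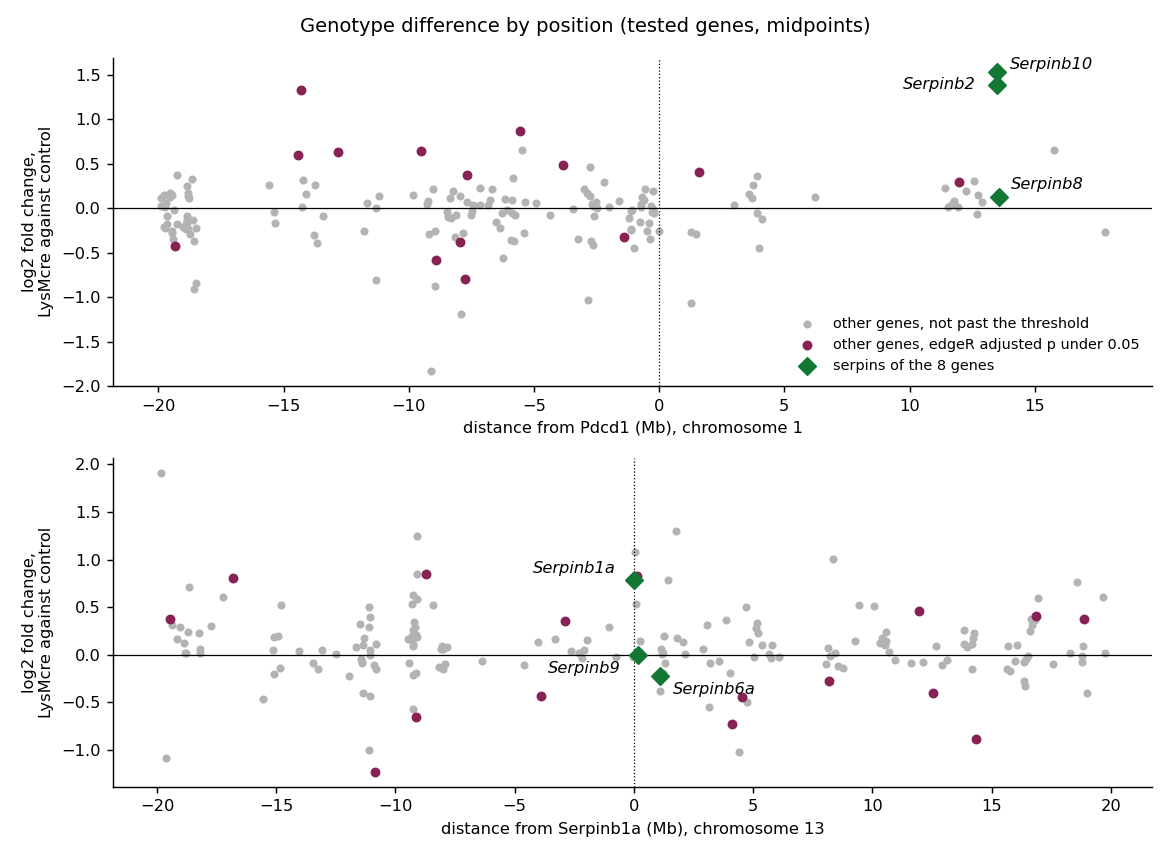
log2 fold change (y axis) of tested genes by distance in Mb from Pdcd1 on chromosome 1 (top) and from Serpinb1a on chromosome 13 (bottom), with the serpins among the 8 genes as green diamonds and other genes past the threshold in purple. Serpinb2 and Serpinb10 stand at 1.39 and 1.53 some 13.5 Mb from Pdcd1, with Serpinb8 beside them at 0.13.

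Of the other clade B serpins, 21 of 22 symbols had an ID, 10 were at 0 counts in all libraries and 4 passed the expression filter. Serpinb6b, a close paralog of Serpinb6a (chr13:32965209-32979067), had 688, 588 and 578 normalized counts in control TAMs and 1081, 1161 and 1047 in Pdcd1f/fLysMcre TAMs. It rose in all 3 libraries (log2 fold change 0.83, standard error 0.09, edgeR adjusted p = 8.2e-04), and it was past the threshold in all 16 alternatives. Serpinb6a, its paralog, differed by -0.22.

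The other members of the Serpinb1 group had few counts. Serpinb1c had 18.6 ± 6.98 and 39.4 ± 3.57 normalized counts (SD over 3 libraries), with a log2 fold change of 1.07 (edgeR adjusted p = 0.0832), and Serpinb1b a log2 fold change of 0.15 (edgeR adjusted p = 0.906). Serpinb12 had 239 ± 45 and 251 ± 49.2 normalized counts (means ± SD over 3 libraries, log2 fold change 0.07, edgeR adjusted p = 0.841). How the counting treated reads that match several paralogs is not given in the sources used here, so the split between Serpinb6a and Serpinb6b, and within the Serpinb1 group, is uncertain. The median log2 fold change of these 4 genes was 0.49.

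Among serpins of other clades, 6 of 16 were tested and 1 was past the threshold by edgeR, Serpina3g. By DESeq2 2 were, Serpina3g and Serpind1, and by limma 1 was, Serpina3g. Serpind1 had 409 ± 73.5 and 567 ± 15.8 normalized counts (means ± SD over 3 libraries, log2 fold change 0.47, edgeR adjusted p = 0.0611). Serpina3g fell from 768 ± 56.7 to 527 ± 83.1 normalized counts (means ± SD over 3 libraries, log2 fold change -0.54, edgeR adjusted p = 0.0302), and was past the threshold in 12 of 16 alternatives. The call was lost without Pdcd1f/f replicate 2 or 3 or Pdcd1f/fLysMcre replicate 1 or 2, with log2 fold changes of -0.63 to -0.42 when 1 library was left out (edgeR adjusted p up to 0.140). Of 16 proteases that clade B serpins inhibit, 11 were tested and 0 were past the threshold by edgeR, with 4 at an unadjusted p under 0.05. By DESeq2 2 of them were past it, the lysosomal cathepsins Ctsk and Ctsl, with log2 fold changes of -0.17 and -0.21 in edgeR, and by limma 0 were. Ctsl had 133849 ± 5904 and 115874 ± 2536 normalized counts (SD over 3 libraries).

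In the plasminogen system itself, the substrate was not detected. Plg, which encodes plasminogen, had 0 counts in all 6 libraries, below the floor of 3 counts, and Serpinf2, the inhibitor of plasmin, had too few counts to be tested. Of the 25 genes listed for plasminogen activation and its control, 24 had an ID and 14 were tested. F2r, a thrombin receptor, was the 1 gene past the threshold. It rose from 461 ± 32.4 to 710 ± 21.1 normalized counts (means ± SD over 3 libraries, log2 fold change 0.63, standard error 0.09, edgeR adjusted p = 0.00339), in all 16 alternatives.

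Plat, the tissue plasminogen activator, had 113 ± 21.2 and 149 ± 7.75 normalized counts (means ± SD over 3 libraries, log2 fold change 0.40, edgeR adjusted p = 0.171). Serpine2, another inhibitor of plasminogen activators, had a log2 fold change of 0.32 (edgeR adjusted p = 0.209). The cell-surface plasminogen binders Plgrkt, Anxa2 and S100a10 had log2 fold changes of 0.09, 0.17 and -0.02 (edgeR adjusted p = 0.546, 0.159 and 0.869). None of these 5 genes differed past the threshold, and the median of the 14 tested was 0.13.

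The balance between inhibitor and activator transcripts was described as a ratio of counts per exon base in each library. Serpinb2 amounted to 1.42, 1.24 and 1.25 per 100 Plau in control libraries and 2.92, 3.06 and 2.76 per 100 in Pdcd1f/fLysMcre libraries. The ratio did not overlap between genotypes, which restates the known difference of Serpinb2 beside the smaller one of Plau. Plau remained far above Serpinb2 in every library. Plau per 100 Plaur was 243, 220 and 207 in Pdcd1f/f and 257, 271 and 246 in Pdcd1f/fLysMcre libraries, which did not overlap but came close.

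**Figure D4:**
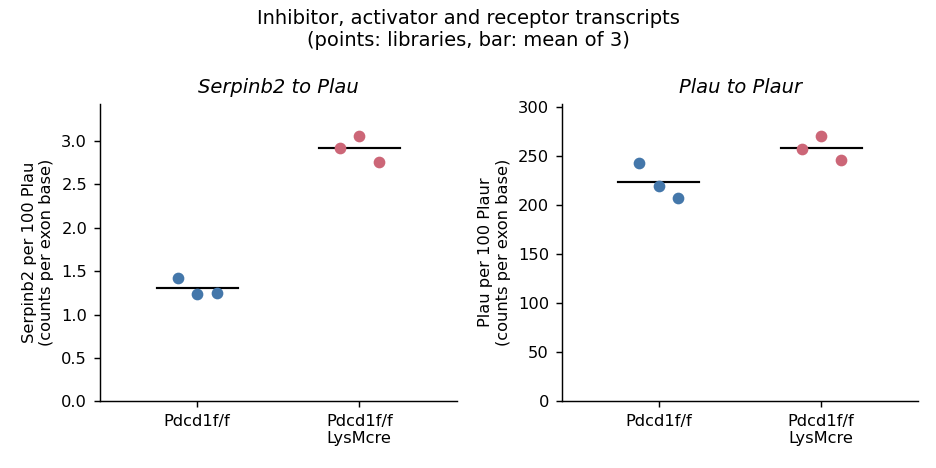
Ratio of transcripts per exon base (y axes, from 0) in each library (points) with the mean of 3 (bar), for Serpinb2 per 100 Plau and Plau per 100 Plaur. Serpinb2 to Plau is 1.24 to 1.42 in Pdcd1f/f and 2.76 to 3.06 in Pdcd1f/fLysMcre libraries, and Plau to Plaur is 207 to 243 and 246 to 271.

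uPAR has no cytoplasmic part and works with integrins and with Lrp1, which clears complexes of uPA and its inhibitor. Of 15 such partners, 14 were tested and 2 were past the threshold, beside 5.43% of all genes tested. Both encode subunits of the αv integrin that binds vitronectin, while the integrin genes Itgb1, Itgb2, Itga3, Itga5 and Itgam did not pass. Itgav rose from 16449 ± 1007 to 20742 ± 1128 normalized counts (means ± SD over 3 libraries, log2 fold change 0.34) and Itgb3 from 1313 ± 71.8 to 1678 ± 49.2 (means ± SD over 3 libraries, log2 fold change 0.36), both with an edgeR adjusted p of 0.0192. Each was past the threshold in 12 of 16 alternatives, and all losses came from leaving out 1 library. Itgav stayed past it only without Pdcd1f/f replicate 1 or Pdcd1f/fLysMcre replicate 3 and Itgb3 only without Pdcd1f/f replicate 1 or 3, with log2 fold changes of 0.31 to 0.38 and 0.31 to 0.39 over the 6 fits (edgeR adjusted p up to 0.130 and 0.116). Lrp1 had 53974 ± 5040 and 40719 ± 8331 normalized counts (means ± SD over 3 libraries, log2 fold change -0.40, edgeR adjusted p = 0.0956). It was past the threshold in 6 of 16 alternatives, DESeq2 among them, with adjusted p from 1.9e-07 to 0.274. With 1 library left out, its log2 fold change ran from -0.55 without Pdcd1f/fLysMcre replicate 1 to -0.26 without Pdcd1f/fLysMcre replicate 2, and it was past the threshold only without Pdcd1f/f replicate 1. The median of the 14 partners was 0.08.

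**Figure D5:**
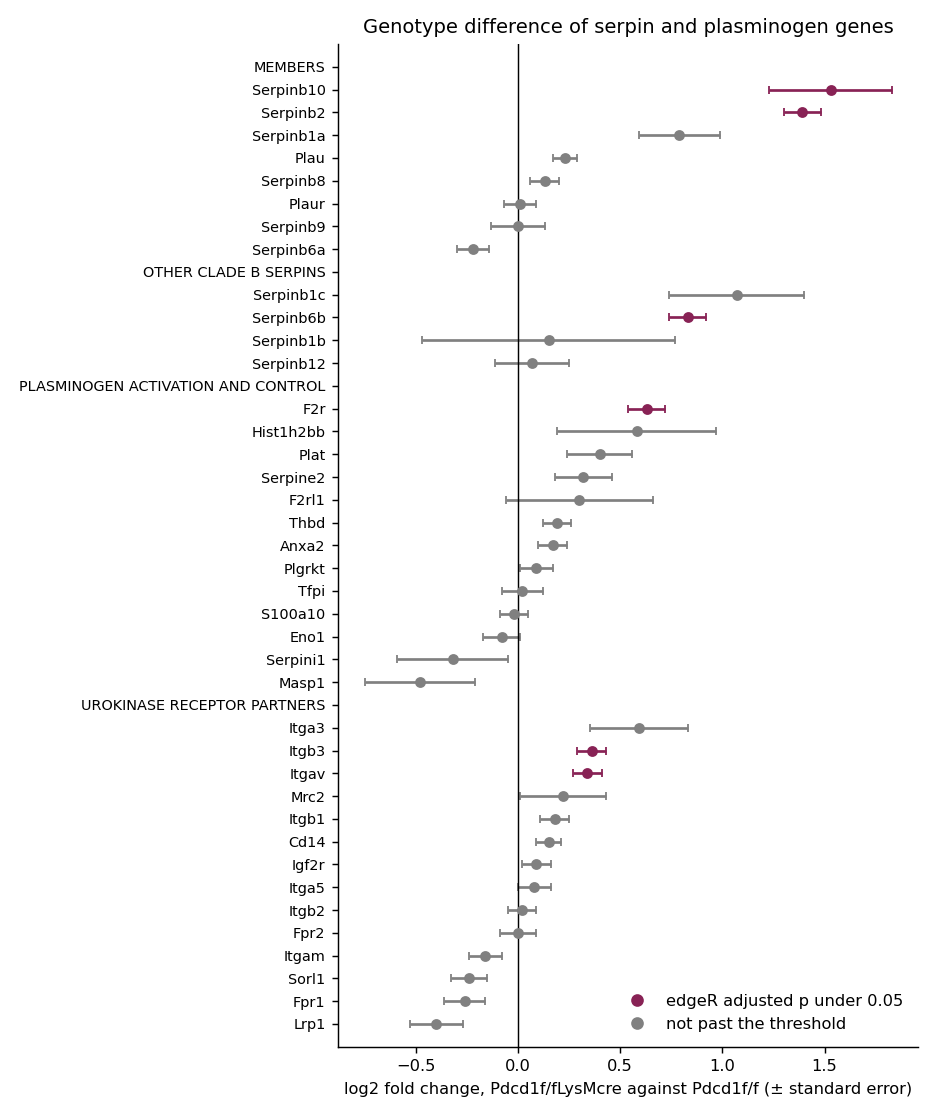
log2 fold change with standard error (x axis, Pdcd1f/fLysMcre against Pdcd1f/f) of the 8 genes (headed members), the other clade B serpins, the plasminogen genes and the uPAR partners reported here, with edgeR adjusted p under 0.05 in purple. Serpinb10 and Serpinb2 lie furthest to the right at 1.53 and 1.39, and Plau and Plaur lie at 0.23 and 0.01.

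Genes whose log2 normalized counts varied most like those of Serpinb2 over the 6 libraries, among 10595 genes, were Slc7a11, a cystine transporter, Txnrd1, a thioredoxin reductase, Dnmt3a and Wdfy1 (Pearson r = 0.999 each) and Lyz1 (0.998). All 5 were higher in every Pdcd1f/fLysMcre library, which follows from choosing them by likeness to Serpinb2, so nothing is read from it. Slc7a11, for example, had 2487 ± 93.1 and 4641 ± 177 normalized counts (SD over 3 libraries). The genes most like Serpinb10 were Pabpc4 (r = 0.995), Prdx6 and Csf3 (0.994 each), Net1 (0.991) and Cct3 (0.990). The 2 genotypes form 2 clusters in these 6 points, so each r includes the genotype difference and is given without a test, and reads of Lyz1 could have been split with those of its paralog Lyz2.

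Markers of the sorted cells and of other cells the sort could hold were set beside the serpins. Of 12 macrophage markers, all were tested and 8 were lower past the threshold, beside 3.01% of all genes tested. Among them were Adgre1, which encodes F4/80 (log2 fold change -0.38, edgeR adjusted p = 0.00496), Csf1r (-0.32, 0.0308) and Mertk (-0.61, 3.6e-04), as well as Lyz2 at the site of the Cre insertion. Ptprc (0.11, edgeR adjusted p = 0.359), Cd68 (-0.06, 0.565), Itgam (-0.16, 0.237) and Fcgr1 (-0.21, 0.0691) did not pass. The 12 markers summed to 715572 to 743464 normalized counts in control libraries and 400316 to 412635 in Pdcd1f/fLysMcre libraries. That sum includes Lyz2, which alone had 216864 normalized counts on average in control libraries and 427 in Pdcd1f/fLysMcre libraries. Of 12 neutrophil markers, 6 were tested and 2 were lower, Csf3r (-0.51, edgeR adjusted p = 0.00686) and Mmp8 (-0.48, 0.00393). The other 4 tested did not pass. S100a8 had 1253 ± 206 and 1472 ± 71.8 normalized counts (SD over 3 libraries, log2 fold change 0.23, edgeR adjusted p = 0.220) and S100a9 had 575 ± 32.4 and 626 ± 20.8 (0.12, edgeR adjusted p = 0.412), while Cxcr2 differed by 0.03 on the log2 scale (edgeR adjusted p = 0.938) and Retnlg by -0.95 (42.2 ± 5.52 and 21.8 ± 8.39 normalized counts). The genotypes did not overlap for 3 of the 6 tested neutrophil markers, all 3 lower in Pdcd1f/fLysMcre TAMs, and overlapped for the other 3. Over all genes tested, 27.2% did not overlap, 14.1% higher and 13.1% lower. Their summed normalized counts, 6583 to 6778 in Pdcd1f/f and 5506 to 5642 in Pdcd1f/fLysMcre libraries, were mostly Csf3r, Mmp8, S100a8 and S100a9. The 6 markers that were not tested, Ly6g, Mpo, Ngp, Camp, Ltf and Elane, had at most 21 counts in any library.

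Of the fibroblast and stromal markers, 7 were tested and 2 were lower, and of the endothelial markers 6 were tested and 1 was lower. Their summed normalized counts were 3263 to 3539 and 1907 to 2038 in control libraries, and 3055 to 3358 and 1550 to 1696 in Pdcd1f/fLysMcre libraries. No marker of mast cells and basophils, epithelial cells, T and NK cells, B cells, dendritic cells or peritoneal type macrophages was past the threshold by edgeR, with 0 to 2 in each list at an unadjusted p under 0.05. By DESeq2 1 of them, Hdc of the mast cell and basophil list, was past it, and by limma 0 were. Mast cell and basophil markers summed to 506 to 535 in Pdcd1f/f and 567 to 747 in Pdcd1f/fLysMcre libraries, the only one of these 6 lists whose sum was higher in every Pdcd1f/fLysMcre library. That sum was nearly all Hdc (257 ± 16.4 and 356 ± 49.2), Kit (194 ± 3.1 and 231 ± 53.8) and Gata2 (67.2 ± 11.8 and 66.6 ± 24.5, normalized counts, SD over 3 libraries), whereas Cpa3, Ms4a2, Mcpt4, Tpsb2 and Mcpt8 had at most 6 counts in any library. The part of cell composition in the differences of the 8 genes was not tested.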

How the data were processed

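RNA-seq of sorted TAMs from 3 Pdcd1f/f and 3 Pdcd1f/fLysMcre libraries was analysed, grouped by the deposited labels. As deposited by the authors, the raw counts are per Ensembl gene, from stranded polyA libraries read as paired ends. Per the labels, the submitters' processing notes list FastQC 0.11.5, cutadapt 2.5, STAR 2.7.3a, featureCounts (Subread 1.6.2) and DESeq2 1.24.0, with GRCm38 (mm10). The authors also deposited a normalized signal for 16552 genes, which equals the counts divided by 1 size factor per library (0.895 to 1.08) and is printed here as normalized counts. The strand setting of the counting and its treatment of reads with several matches are not given in the sources used here. 0 columns of sample values were left out.

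The genotypes were compared on the counts with edgeR 4.0.16 in R 4.3.3 (filterByExpr with a minimum count of 10 and a minimum total count of 15, TMM, robust glmQLFit, two-sided glmQLFTest), with Benjamini-Hochberg adjustment over 14469 genes and a threshold of 0.05. The script was tested on simulated data. The smallest p of a two-sided exact permutation test on a single gene is 0.1 in this design. Total counts were 41833823 to 51417209 per library, which limits Serpinb10 and Pdcd1 to a rough estimate. Nothing in the labels says that the libraries came from separate mice, so p-values and SDs measure only the spread between these samples, which may be technical.

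Symbols, positions, exon lengths and GC content came from GENCODE release M21 of GRCm38, and 14461 tested IDs had a symbol. Promoter windows came from the RefSeq table of GRCm38.p6, which held 6 of the 8 genes. Likeness was the Pearson r of log2(normalized count + 1) over 6 libraries, among genes with a mean of at least 100.

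The 8 genes and the gene lists were chosen with earlier results of these data known. Named besides the 8 were selected genes of plasminogen activation and uPAR function whatever their value (1 of them, counted in its list, is not reported here), genes of each list past the threshold (up to 6 in each), Pdcd1 and genes near it past the threshold, and the 5 genes most like Serpinb2 and Serpinb10. Other serpins, Tns1, Ctsk, Ctsl, neutrophil and mast cell markers that did not pass, Ripk1, Nqo2, Xist and the Y-linked genes were named after their values were seen. Alternatives were RLE factors, library size alone, no expression filter, at least 10 counts in every library, DESeq2 1.42.0, limma-trend (limma 3.58.1, pseudocount 1), the replicate number as a block, loess offsets for GC content and length (span 0.5), alone or beside the block, leaving out 1 library at a time, and, chosen after seeing the data, the 2 libraries with the opposite GC trend left out.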

Additional observations from a re-analysis of the deposited data

How the results depend on the processing

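The number of genes past the threshold, 786 in edgeR, was 1951 with no expression filter, 1533 by DESeq2, 2694 with GC and length offsets, 2770 with the replicate block and offsets, 3757 with the 2 libraries of opposite GC trend left out (chosen after seeing the data), and 222 to 3181 with 1 library left out, the lowest without Pdcd1f/fLysMcre replicate 1 and the highest without Pdcd1f/f replicate 1. Offsets moved the share of higher calls from 44.5% to 57.5%. Under the same settings, 2 of the 8 genes became 5, 4, 5, 5 and 4 past the threshold, and 1 to 4 with 1 library left out. For the plasminogen genes and uPAR partners, 3 became 5 by DESeq2, 11 with offsets, 13 with block and offsets, 11 with the 2 libraries left out and 1 to 7 with 1 library left out. For the other clade B serpins, 1 became 2 with no filter, with offsets, with block and offsets, and with the 2 libraries left out, and was 1 to 1 with 1 library left out. For genes from Pdcd1 to beyond Serpinb8, 2 became 4 with offsets, 4 with block and offsets, 8 with the 2 libraries left out and 0 to 5 with 1 library left out, with 0 without Pdcd1f/f replicate 2 or 3 or Pdcd1f/fLysMcre replicate 1 or 2. The cause of these shifts was not tested.

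The log2 fold change of Serpinb9, -0.00, was 0.08 without Pdcd1f/f replicate 1, 0.06 without Pdcd1f/fLysMcre replicate 1 and 0.03 without Pdcd1f/fLysMcre replicate 3, within a range of -0.10 to 0.08 with 1 library left out. That of Plaur, 0.01, was -0.01 with library size alone, -0.08 without Pdcd1f/f replicate 1, -0.04 without Pdcd1f/fLysMcre replicate 3 and -0.05 with the 2 libraries left out, within a range of -0.08 to 0.07 with 1 library left out. The other 6 genes kept their direction in all 16 alternatives.

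Deviations of libraries with the same replicate number correlated at -0.013, -0.097 and 0.22, and those with different numbers at -0.254 to 0.235. With 3 libraries for each genotype, these values cannot settle whether the numbers pair the samples. With the replicate block, 1027 genes, 3 of the 8 genes and 4 plasminogen and uPAR genes were past the threshold. So were 1 other clade B serpin and 2 genes from Pdcd1 to beyond Serpinb8. At the depth of these libraries Serpinb10 had at most 57 counts in any library, and small differences of such genes were not detectable.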
